A study of Mus musculus with 6 samples.

Results

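Elastic fibres give skin, vessels and lung their recoil. They consist of a core of cross-linked elastin laid on a scaffold of fibrillin microfibrils, and fibulins, microfibril-associated proteins and emilins join the parts to each other and to cells. In adult tissue the genes are used mainly by fibroblasts, smooth muscle and other mesenchymal cells, and the microfibrils also hold growth factors of the TGF-beta family. The genes described here are Eln, Fbn1, Fbln1, Fbln2, Fbln5, Mfap2, Mfap4, Mfap5, Efemp2 and Emilin1. Their probes were taken as the non-control probes named with one of these symbols, current or older, which gave 15 probes for all 10 genes, of 33026 probes named to 19694 genes on the array.

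RNA came from tumors of Hepa1-6, a mouse hepatoma line, whose cells were injected subcutaneously into female C57Bl/6 mice. The tumors grew for 15 days (3 tumors, numbered 303, 313 and 318) or 10 days (3 tumors, 302, 307 and 312). The labels give the same number of injected cells for every tumor and name no other treatment. Each tumor was hybridised on its own 2-colour array, with tumor RNA in Cy5 and, in Cy3, a common reference that the labels call blood RNA of an untreated female mouse of the same strain. The tumor is pooled tissue of grafted hepatoma cells and of the cells of the host, and a bulk measurement cannot tell fewer cells of a type from less RNA per cell. The labels do not say which mouse a tumor came from, so p-values measure only the spread between these samples.

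Per array, 52.4% to 58.5% of spots were well above background in Cy5, as marked by the scanner software, and 47.5% to 52.8% in Cy3. The array of day 10 tumor 312 had an area that had lost signal, 20.3% of its spots, and it held the probes of Fbln2 and Mfap4 but none of the other 13 probes. Day 15 tumor 313 stood apart in genes of liver and hepatoma cells such as albumin (Alb), at a log2 ratio of -2.48, against 2.26 to 3.06 in the other 5 tumors. It did not in Gpc3, a gene of the same list, at 5.135 against 4.73 to 5.48 in the other 5. The reference went partly against its label. The red cell genes Hbb-bt, Hba-a1 and Alas2 gave a clear Cy3 signal on every array, but Slc4a1 passed the background in Cy3 on none and in Cy5 on all 6. Haemoglobin genes were higher in the tumors (Hbb-bt at a log2 ratio of 5.80), and 5 of 8 genes of liver and hepatoma cells gave a Cy3 signal well above background on each of the 6 arrays. It is therefore called the reference below, and a ratio says how a tumor stood against that RNA. All arrays of a day lay on 1 slide, so slide and day cannot be told apart.

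RefSeq promoter windows (assembly GRCm38.p6, 250 bases before to 50 after a transcript start) were in the table used here for 7 of the 10 genes. The windows of 2 pairs with similar profiles over the tumors, as described further on, are shown. Fbn1 and Mfap2, which both had windows, were slightly closer to each other than Fbln5 and Fbln1 but are not shown as a pair. Fbln5 and Fbln1 varied between the tumors, whereas Fbn1 and Emilin1 differed little. Capitals mark a GC box (GGGCGG) or a CCAAT box (CCAAT), searched on both strands, and no matches overlapped each other.
Fbln5, chr12:101819070-101819369, minus strand: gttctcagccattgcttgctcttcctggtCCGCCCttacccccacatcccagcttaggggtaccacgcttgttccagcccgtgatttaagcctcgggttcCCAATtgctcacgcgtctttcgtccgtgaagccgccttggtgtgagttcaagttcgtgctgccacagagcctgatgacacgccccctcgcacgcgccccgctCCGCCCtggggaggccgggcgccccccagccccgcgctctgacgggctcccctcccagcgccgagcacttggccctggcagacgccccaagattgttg
Fbln1, chr15:85205699-85205998, plus strand: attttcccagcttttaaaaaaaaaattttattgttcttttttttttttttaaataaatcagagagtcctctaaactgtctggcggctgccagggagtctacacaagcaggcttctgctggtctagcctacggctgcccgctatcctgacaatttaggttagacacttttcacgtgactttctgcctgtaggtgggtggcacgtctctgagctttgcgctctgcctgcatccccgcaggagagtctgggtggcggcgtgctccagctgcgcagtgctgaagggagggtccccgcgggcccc
Fbn1, chr2:125506389-125506688, minus strand: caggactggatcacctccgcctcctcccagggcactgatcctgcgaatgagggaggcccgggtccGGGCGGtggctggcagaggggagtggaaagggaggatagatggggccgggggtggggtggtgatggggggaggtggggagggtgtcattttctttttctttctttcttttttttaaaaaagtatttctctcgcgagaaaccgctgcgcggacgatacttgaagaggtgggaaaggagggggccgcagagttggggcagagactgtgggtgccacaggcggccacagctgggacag
Emilin1, chr5:30913536-30913835, plus strand: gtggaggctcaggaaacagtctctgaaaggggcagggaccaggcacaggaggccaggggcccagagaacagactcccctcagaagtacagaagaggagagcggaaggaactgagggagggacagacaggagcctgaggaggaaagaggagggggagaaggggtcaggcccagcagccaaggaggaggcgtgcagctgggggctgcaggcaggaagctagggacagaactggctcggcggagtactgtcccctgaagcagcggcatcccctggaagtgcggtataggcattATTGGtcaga
The Fbln5 window held 2 GC boxes and 1 CCAAT box, the Fbn1 window 1 GC box and the Emilin1 window 1 CCAAT box, and the Fbln1 window held neither. Members of either shown pair thus did not share a motif. Of all 32851 windows of this length, 35.7% held a GC box and 37.4% a CCAAT box. A TATA box (TATAAA, in 13.6% of all windows) and an AP-1 motif (TGANTCA, in 7.81%) were found in none of the 7 windows. GC content was 65.7% for Fbln5, 51.7% for Fbln1, 60.3% for Fbn1 and 61.7% for Emilin1, against a median of 52.7% over all windows. These matches describe the letters of the windows only.

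The first comparison asked how the tumors stood against the reference. Transcripts of 9 of the 10 genes were higher in the tumors, from 3.80-fold for Eln to 108-fold for Fbn1, and that of Efemp2 passed the test at 1.70-fold but not the size required. A gene was called at a limma adjusted p under 0.05 (Benjamini-Hochberg over all probes tested) and an absolute log2 ratio of at least 1. Of all 16336 genes tested, 25.5% were called higher and 9.76% lower, and the members' 9 of 10 higher and 0 lower stand beside those shares. In this and every later share over all genes, a probe matched to no RefSeq gene (8148 on the array) counts under its name in the array files. All 10 lay above 0 on all 6 arrays, as did 43.3% of all genes. The median log2 ratio was 3.72 over the members and 0.22 over all genes tested. Since the reference was a single RNA source by its label and no dyes were swapped, the spread of the reference and any dye bias of a probe are not covered by these tests.

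**Figure D1:**
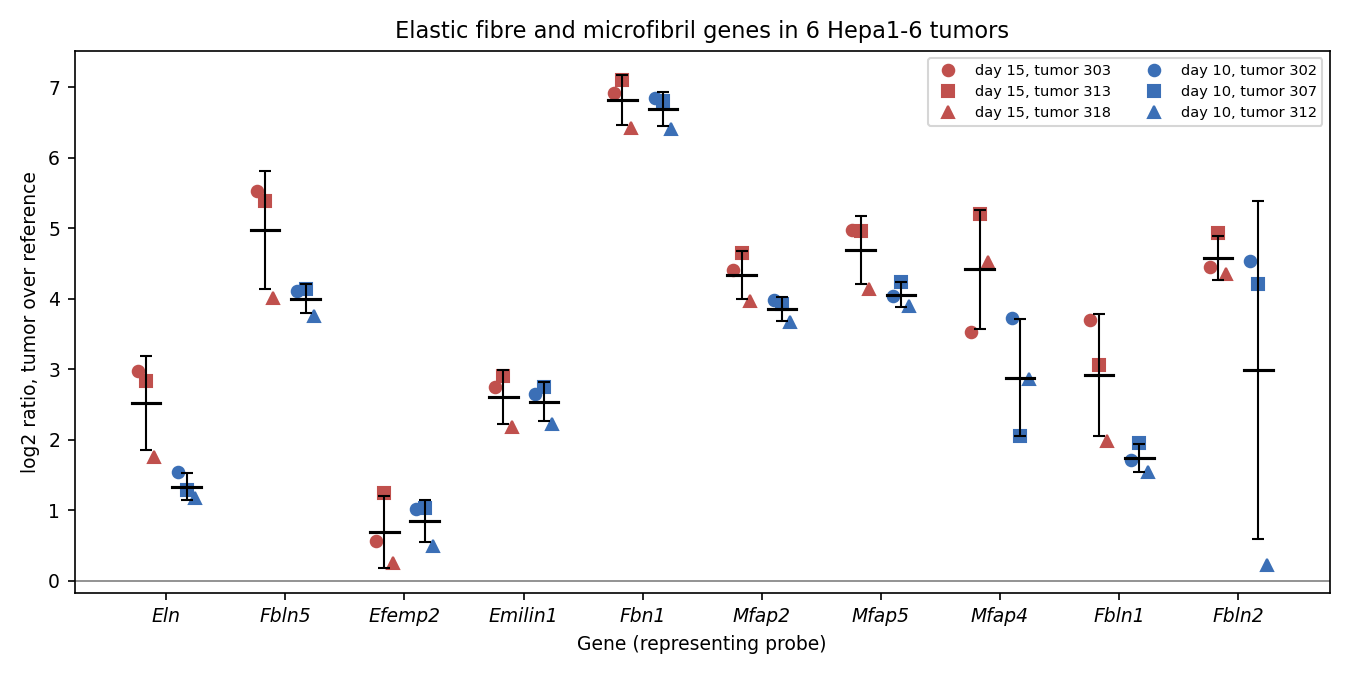
Log2 ratio of tumor over reference (vertical axis) for the representing probe of each gene (horizontal axis), 1 point per tumor, with day 15 left of day 10, and the mean and SD of the 3 tumors in black. All points lie above 0, Eln and Fbln1 show no overlap between the days, and the lowest Fbln2 point, 0.23, is tumor 312, whose spot lay in the area of lost signal.

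Eln encodes tropoelastin, the soluble monomer of elastin. Its log2 ratio of tumor over reference was 2.98, 2.83 and 1.75 in day 15 tumors 303, 313 and 318, and 1.54, 1.28 and 1.17 in day 10 tumors 302, 307 and 312. Every day 15 value lay above every day 10 value, but tumor 318 stood closer to the day 10 tumors than to the other two of its day. The mean ratio was 1.93 ± 0.78 (SD, n = 6; limma adjusted p = 7.79e-05), and it rests on a reference signal that was well above background on 4 of 6 arrays.

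The proteins that help elastin assemble differed widely. Fbln5 encodes fibulin-5, which binds tropoelastin, integrins and lysyl oxidase-like enzymes, and mice without it form disorganised elastic fibres. Its log2 ratio was 5.53, 5.38 and 4.01 in day 15 tumors, and 4.11, 4.14 and 3.76 in day 10 tumors. Tumors 303 and 313 stood above the other 4 tumors, and tumor 318 lay within the range of day 10. The mean was 4.49 ± 0.76 (SD, n = 6; limma adjusted p = 5.24e-06). Its Cy3 signal was well above background on 2 of 3 day 15 arrays and on none of the day 10 arrays, so the size of the ratio is uncertain. Efemp2 encodes fibulin-4, which brings lysyl oxidase to tropoelastin. It was bright in both dyes, with mean signals from 20000 to 48400 in Cy5 and from 25400 to 39330 in Cy3. Its log2 ratio was 0.56, 1.25 and 0.25 in day 15 tumors, and 1.01, 1.03 and 0.50 in day 10 tumors, so the days overlapped. The mean of 0.77 ± 0.39 (SD, n = 6; limma adjusted p = 0.00264) turned to -0.20 when arrays were centred on their median without loess, a scaling that moved the median of all genes from 0.22 to -0.34. Emilin1 encodes a glycoprotein found where elastin meets the microfibrils. Its log2 ratio was 2.75, 2.91 and 2.18 in day 15 tumors, and 2.65, 2.74 and 2.23 in day 10 tumors. The 6 values formed 1 overlapping range, with a mean of 2.58 ± 0.30 (SD, n = 6; limma adjusted p = 6.37e-06) and a reference signal above background on all arrays.

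Among the microfibril genes, Fbn1 had the largest ratio of the 10. It encodes fibrillin-1, the rod-like protein that forms the backbone of microfibrils. Its log2 ratio was 6.93, 7.10 and 6.42 in day 15 tumors, and 6.85, 6.80 and 6.41 in day 10 tumors. The lowest tumor of each day, 318 and 312, lay below the other 4, which stood between 6.80 and 7.10, and the days overlapped. The mean was 6.75 ± 0.28 (SD, n = 6; limma adjusted p = 1.49e-07). The reference signal of Fbn1 was dim, with mean signals of 166.1 to 219.9 over backgrounds of 84.5 to 92. It was well above background on 5 of 6 arrays, so the size of the ratio is uncertain. Mfap2 and Mfap5 encode the microfibril-associated glycoproteins MAGP-1 and MAGP-2, small proteins bound to fibrillin. Mfap2 had log2 ratios of 4.40, 4.65 and 3.97 in day 15 tumors, and 3.98, 3.92 and 3.67 in day 10 tumors. Mfap5 had 4.98, 4.97 and 4.14 in day 15 tumors, and 4.04, 4.25 and 3.90 in day 10 tumors. For both, tumors 303 and 313 were the 2 highest and tumor 318 fell among the day 10 values. The means were 4.10 ± 0.36 for Mfap2 and 4.38 ± 0.47 for Mfap5 (SD, n = 6 each; limma adjusted p = 4.40e-07 and 8.13e-07). The reference signal was well above background on all arrays for Mfap2 and on 5 of 6 for Mfap5.

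Mfap4, a fibrinogen-related glycoprotein that binds elastin and fibrillin, followed another order of tumors. Its log2 ratio was 3.53, 5.20 and 4.52 in day 15 tumors, and 3.73, 2.06 and 2.86 in day 10 tumors. The days overlapped, because tumor 303 lay below tumor 302. The mean was 3.65 ± 1.13 (SD, n = 6; limma adjusted p = 4.25e-05). Its reference signal was well above background on all 3 day 15 arrays and on none of the 3 day 10 arrays, and its spot on the array of tumor 312 lay in the area of lost signal.

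Fbln1 and Fbln2 encode fibulins of elastic fibres and basement membranes. Fbln1 had log2 ratios of 3.71, 3.06 and 1.99 in day 15 tumors, and 1.72, 1.95 and 1.55 in day 10 tumors. The days did not overlap, but tumor 318 lay barely above tumor 307. The mean was 2.33 ± 0.86 (SD, n = 6; limma adjusted p = 8.90e-05), with a reference signal above background on all arrays. Fbln2 had 4.45, 4.93 and 4.35 in day 15 tumors, and 4.54, 4.21 and 0.23 in day 10 tumors. Apart from tumor 312 the values lay within 1 log2 unit and the days overlapped. On the array of tumor 312 the mean signals of the Fbln2 spot were 135.7 in Cy5 and 121.6 in Cy3, neither well above background, against 9004 to 46300 in Cy5 and 804.6 to 3599 in Cy3 on the other arrays. The mean ratio over 6 tumors was 3.78 ± 1.76 (SD, n = 6; limma adjusted p = 7.40e-04), and 4.47 with the spots of the lost area left out.

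Where a gene had several probes, they did not always give the same size. The second Fbn1 probe had a mean log2 ratio of 4.04 ± 0.39 (SD, n = 6) against 6.75 for the representing one, and its reference signal was above background on 1 array only. The second Mfap2 probe gave 1.74, 2.37 and 0.88 in day 15 tumors, and 0.42, 0.58 and 0.61 in day 10 tumors, with a mean of 1.10. All its values were below the lowest value of the representing probe, 3.67. In Cy3 it read 163.1, 195.4 and 144.6 on day 15 arrays, and 677.2, 279.9 and 132.7 on day 10 arrays, and only the arrays of tumors 302 and 307 were well above background. The 2 Fbln1 probes were close to each other, with mean log2 ratios of 2.33 and 1.94. Fbln5 had 2 further probes that were not well above background in either dye on any array, one of them assigned in the array files to a RefSeq transcript and the other, like the representing probe, to a cDNA clone. The ratio of Fbln5 therefore rests on the clone-based probe alone. Each gene is represented by its brightest probe. With the mean of all probes that could be tested, the log2 ratio was 5.40 for Fbn1 and 2.60 for Mfap2.

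**Figure D2:**
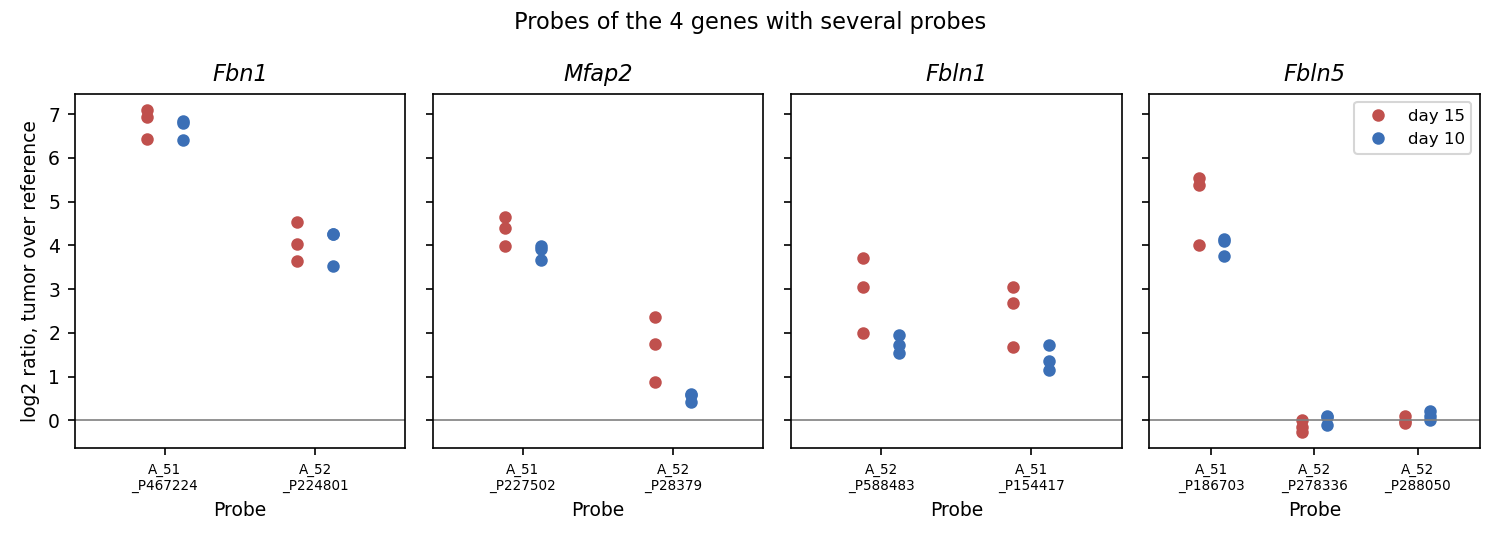
Log2 ratio of tumor over reference (vertical axis) for each probe (horizontal axis) of the genes with several probes, 1 point per tumor, with day 15 left of day 10. The probe that represents each gene is on the left, the second probes of Fbn1 and Mfap2 lie lower at means of 4.04 and 1.10, and 2 of 3 Fbln5 probes lie near 0 with neither dye well above background.

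The second comparison asked whether day 15 tumors differed from day 10 tumors. None of the 10 genes passed at an adjusted p under 0.05, and all had a limma adjusted p of 1. Of all 15815 genes tested, 0.0126% were called higher and 0.0443% lower at day 15. Without adjustment, Eln, Fbln1, Mfap4 and Mfap5 had a p under 0.05 and a positive difference, 4 of 10 members, beside 2.44% of all genes higher and 1.57% lower at that level. The difference was above 0 for 9 of 10 members and for 55% of all genes. Its median was 0.80 over the members and 0.02 over all genes, on the log2 scale. With the spots of the lost area on the array of tumor 312 left out, the members' median was 0.56. Eln and Fbln1 had all day 15 tumors above all day 10 tumors, 2 of 10 members, as did 5.06% of all genes. In the second Fbln1 probe the days overlapped, with tumor 318 at 1.68 and tumor 307 at 1.72. No member had all day 15 tumors below all day 10 tumors, as 3.79% of all genes did.

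For Eln the difference of day 15 minus day 10 was 1.19 ± 0.34 (SE, 3 tumors each; 95% interval 0.374 to 1.996; limma unadjusted p = 0.0111). For Fbln1 it was 1.18 ± 0.42 (SE; limma unadjusted p = 0.0289), and its second probe gave 1.06 ± 0.37 (SE). Both genes had a like difference in the Cy5 signal alone, at 1.19 for Eln and 1.12 for Fbln1, while the Cy3 signal of Fbln1 differed by -0.02 and that of Eln by 0.28 between the slides. In Cy5 alone no gene of 15815 passed the adjusted threshold, and 0.936% were higher at day 15 with an unadjusted p under 0.05, Eln, Fbln1 and Mfap4 among them. Without tumor 318, which had the lowest day 15 value in both genes, the differences were 1.57 for Eln and 1.64 for Fbln1. Without tumor 303 the differences were 0.96 for Eln and 0.78 for Fbln1. They were 0.68 and 0.75 in the same order with median centring, which moved the median difference of all genes from 0.02 to -0.30.

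Fbln5 and the microfibril proteins Mfap5 and Mfap2 had smaller positive differences. They were 0.97 ± 0.41 for Fbln5, 0.64 ± 0.26 for Mfap5 and 0.48 ± 0.21 for Mfap2 (SE; limma unadjusted p = 0.0522, 0.048 and 0.0578). With median centring they were 0.58 for Fbln5, 0.25 for Mfap5 and 0.044 for Mfap2, beside a median of -0.30 over all genes. In the representing probes of these genes the highest 2 values were tumors 303 and 313 and the days overlapped. The second Mfap2 probe differed, with no overlap and a difference of 1.13 ± 0.36 (SE; limma unadjusted p = 0.0187). In Cy5 alone its difference was 0.11, and its Cy3 signal was not well above background on any day 15 array. Fbn1, Emilin1 and Efemp2 showed differences of 0.13 ± 0.23, 0.07 ± 0.25 and -0.16 ± 0.30 (SE). Their 95% intervals ran from -0.42 to 0.68 for Fbn1, from -0.52 to 0.66 for Emilin1 and from -0.87 to 0.55 for Efemp2, so these data leave room for differences of either sign. For Fbn1 and Emilin1 the sign changed under several of the settings given in the closing section, and for Efemp2 only without tumor 318. The 0.20 of Fbln2 with the lost area left out stands against 1.58 ± 1.10 (SE; limma unadjusted p = 0.198) with tumor 312 included.

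The difference of Mfap4 depended on how the ratio was made. It was 1.54 ± 0.55 (SE; limma unadjusted p = 0.0292) in the log2 ratio and 2.33 in Cy5 alone, but 0.20 in the log ratio of the scanner software. The quantile normalized log2 Cy3 signal of Mfap4 was 7.83, 8.73 and 7.81 on day 15 arrays, and 7.06, 6.54 and 6.99 on day 10 arrays, where it was not well above background on any array. The reference thus read higher on every day 15 array (limma unadjusted p = 0.00682, adjusted p = 0.594). No gene of 13951 passed in the reference signal, 1.54% had an unadjusted p under 0.05, and 9 members were tested.

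The reference was the same RNA on every array by its label, so its signal was set beside that of the tumors. Over the 5 arrays without that of tumor 312, the Cy3 signal of a gene ranged over a median of 0.20 log2 units, and 4.35% of genes ranged over at least 1. Among the members the range was 2.18 for Fbln2, 2.19 for Mfap4, 1.84 for Mfap2 and 0.98 for Eln. Fbln1 ranged over 0.23 and Efemp2 over 0.23, and the other 4 over 0.47 to 0.57. In Mfap2 the log2 Cy3 signal was 9.45, 10.74 and 8.94 on day 15 arrays, and 8.90, 9.16 and 9.51 on day 10 arrays. The array of tumor 313 gave the highest signal of Fbln2, Mfap2 and Mfap4 in both dyes, and that of tumor 303 the highest of Eln in both. The part of this shared movement of the dyes in the ratios was not tested.

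**Figure D3:**
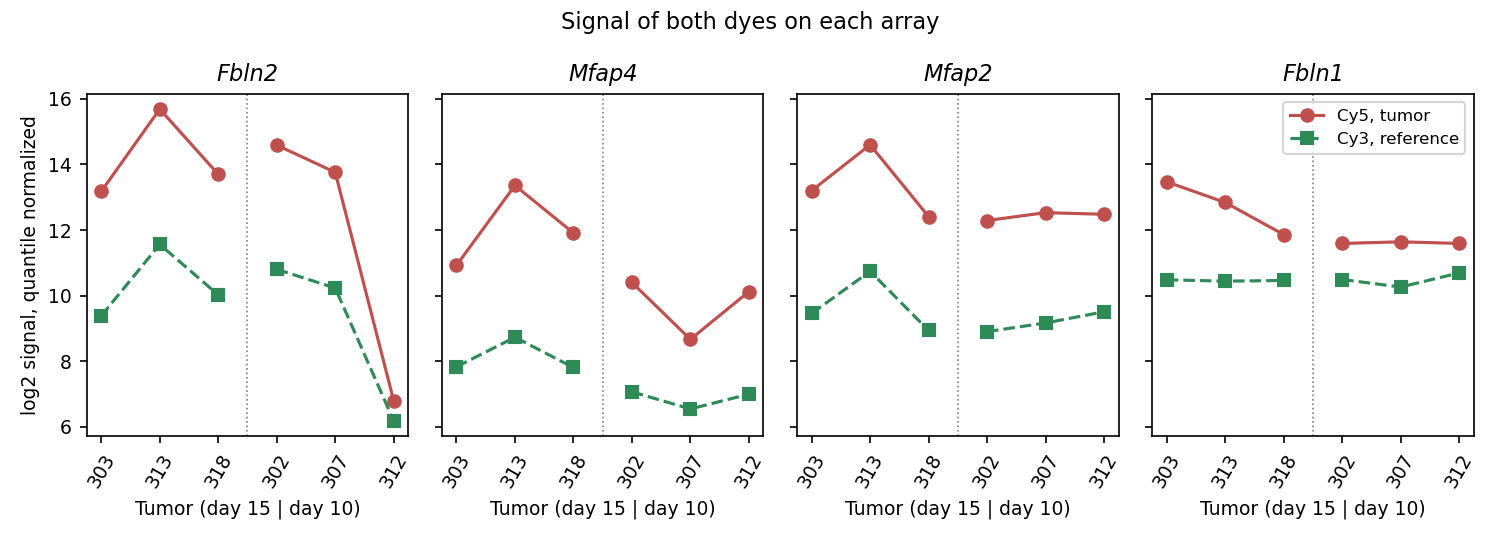
Quantile normalized log2 signal (vertical axis) of tumor RNA in Cy5 (red) and reference RNA in Cy3 (green) on each array (horizontal axis, day 15 left of the dotted line, day 10 right) for Fbln2, Mfap4, Mfap2 and Fbln1. The Cy3 line follows the Cy5 line in the first 3 genes, peaking at tumor 313, and is nearly flat for Fbln1.

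Over the tumors, the median log2 ratio of the 10 genes was 4.05, 4.79 and 3.99 in day 15 tumors 303, 313 and 318, and 3.85, 3.33 and 2.55 in day 10 tumors 302, 307 and 312. The highest value of each gene lay in tumor 313 for 6 genes and in tumor 303 for 4. The lowest lay in tumor 312 for 7 genes, in 318 for 2 and in 307 for 1. The 7 include Fbln2, whose value of 0.23 came from a spot in the area of lost signal, not well above background in either dye. That value and the Mfap4 value from the same area also enter the median of 2.55. Genes were compared with each other by the root mean square difference of their log2 ratios over the 6 tumors, each gene centred on its mean. The closest pair was Fbn1 and Emilin1 at 0.0562 log2 units, followed by Mfap2 and Mfap5 at 0.161, Eln and Fbln5 at 0.171, Fbn1 and Mfap2 at 0.186 and Fbln1 and Fbln5 at 0.19. Of 10990 genes measured in Cy5 on all 6 arrays, those closest to Eln were Kcna1, Akap12 and Cd1d1 (0.146 to 0.164), and those closest to Fbln5 were Prss12, Plpp3 and Ace (0.111 to 0.142). Fbln1 was closest to an immunoglobulin kappa variable gene, Fbln5 and Bmper (0.186 to 0.197). Closest to Fbn1 were Dnajc27, Uaca and Atraid (0.0228 to 0.0363), and closest to Emilin1 were Tpd52, Atraid and Rras (0.044 to 0.0514). Mfap2 was closest to Cpxm1, Lsp1 and Csf1r (0.0503 to 0.0634), Mfap5 to Arvcf, Asphd2 and Plxdc2 (0.08 to 0.0892), and Efemp2 to Mcfd2, Ncs1 and Kctd15 (0.0588 to 0.0636). No gene came as close to Mfap4, for which Cilp, Tenm3 and H19 stood at 0.367 to 0.474. Genes that vary little lie close to many others, and the 6 arrays are shared by all, so these distances are descriptions.

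Markers of cell types were read in the same tumors, in lists of 8 genes each, of which the red cell list had 4 tested. The fibroblast list, such as the collagen genes Col1a1 and Col3a1, was higher than the reference in 8 of 8 genes, with a median log2 ratio of 6.48, 6.96 and 6.28 in day 15 tumors, and 6.31, 6.10 and 5.78 in day 10 tumors. The difference of day 15 minus day 10 was above 0 in 8 of 8, with a median of 0.52, and 3 had an unadjusted p under 0.05. The smooth muscle and pericyte list had medians of 2.84, 2.40 and 1.57 in day 15 tumors, and 2.13, 1.13 and 1.81 in day 10 tumors, and 6 of its 8 genes had a difference above 0 between the days with an unadjusted p under 0.05. The endothelial list had 3.53, 3.71 and 3.04 in day 15 tumors, and 3.01, 2.42 and 2.33 in day 10 tumors, with 8 of 8 differences above 0 and 5 at an unadjusted p under 0.05. No gene of these 3 lists passed the adjusted threshold between the days. Of all genes tested, 25.5% were called higher than the reference. Between the days, 55% of all genes had a difference above 0 and 2.44% were higher at an unadjusted p under 0.05.

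Fat and skeletal muscle lie beneath the skin, and lists of their markers were read as well. The adipocyte list had medians of 4.71, 4.98 and 0.81 in day 15 tumors, and 1.47, 2.44 and 0.06 in day 10 tumors, so tumors 303 and 313 stood above the others. These tumors were also the 2 highest in the fibroblast, smooth muscle, endothelial and macrophage lists, and in Eln, Fbln1, Fbln5, Mfap2, Mfap5, Fbn1 and Emilin1. They were not in Fbln2, Mfap4 and Efemp2, nor in the red cell, skeletal muscle and liver and hepatoma lists. The share of all genes with these tumors highest was not counted. All 8 differences of the adipocyte list between the days lay above 0, and 1 had an unadjusted p under 0.05. The skeletal muscle list had medians of -0.19, -0.05 and -0.09 in day 15 tumors, and 4.19, 3.09 and 4.13 in day 10 tumors. Of its 8 genes, 5 were lower at day 15 past the adjusted threshold, as were 0.0443% of all genes tested. Macrophage medians were 5.44, 5.56 and 4.90 in day 15 tumors, and 5.05, 5.04 and 4.66 in day 10 tumors. The red cell list had 3.87, 3.52 and 3.53 in day 15 tumors, and 2.92, 3.01 and 2.85 in day 10 tumors, and the liver and hepatoma list 3.21, -0.63 and 3.98 in day 15 tumors, and 2.89, 2.53 and 3.40 in day 10 tumors. The part of these cell types in the values of the elastic fibre genes was not tested.

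**Figure D4:**
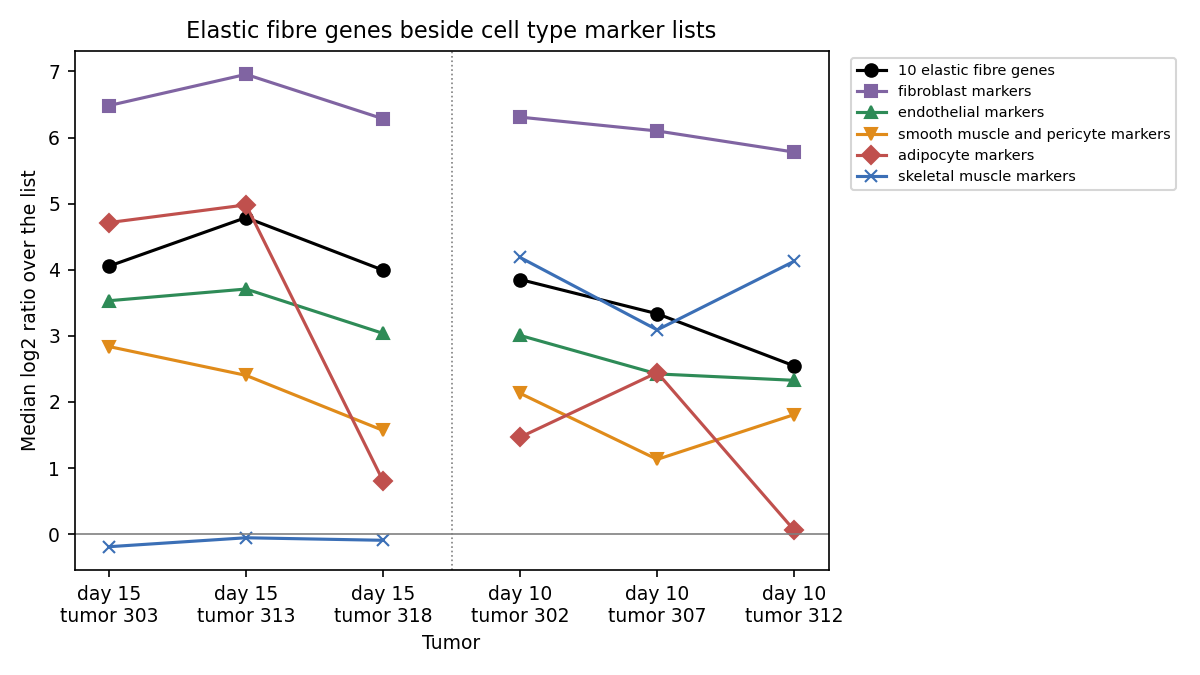
Median log2 ratio of tumor over reference (vertical axis) of the 10 elastic fibre and microfibril genes and of 5 lists of 8 cell type markers in each tumor (horizontal axis, day 15 left, day 10 right). The adipocyte list is high in tumors 303 and 313 and 0.81 in tumor 318, and the skeletal muscle list is near 0 at day 15 and between 3.09 and 4.19 at day 10.

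The wider pathway was described by 5 further lists. Beside their counts stand the shares over all genes tested, with 25.5% called higher than the reference, 9.76% lower and 55% above 0 between the days. Of the partners in assembly of elastic fibres (other fibrillins and fibulins, latent TGF-beta binding proteins, lysyl oxidases, emilin relatives and proteoglycans), 15 of 22 genes tested were higher than the reference and 1 lower, with a median log2 ratio of 2.91. Efemp1, which encodes fibulin-3, stood at 6.88 and Lox, the lysyl oxidase that starts the cross-linking of elastin and collagen, at 4.90. The reference signal of Lox was well above background on 3 arrays only. The emilin relative Mmrn2 stood at 5.46 ± 2.75 (SD, n = 6), with tumor 312 at -0.08 and its spot in the lost area. Between the days no partner passed the adjusted threshold, and 16 of 22 differences lay above 0. The smallest p values belonged to Fbn2, fibrillin-2, at a difference of 1.35 (limma unadjusted p = 0.034), to Loxl4 at -0.69 and to Fbln7 at 1.52, and all 3 probes lay in the lost area of the array of tumor 312.

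Of proteases that can cleave elastin, 7 of 9 tested were higher than the reference and 1 lower. Elane and Prtn3 of this list were not well above background in either dye on any array and were not tested. Mmp7, among those called higher, had no reference signal well above background on any array. The cathepsin genes Ctss and Ctsk stood at a log2 ratio of 10.30 ± 0.30 and 4.51 ± 0.47, and the gelatinase gene Mmp2 at 4.20 ± 0.41 (SD, n = 6 each). Between the days 0 of 9 passed, and the smallest p values belonged to Ctsk at a difference of 0.60, Mmp2 at 0.50 and the membrane-bound protease gene Mmp14 at 0.59. Of protease inhibitors, 5 of 8 were higher and 0 lower, with Slpi, a secreted inhibitor of leukocyte elastase, at a log2 ratio of 3.48, Timp3 at 2.42 and the cystatin gene Cst3 at 2.15. Their smallest p values between the days belonged to Timp4 at 0.54, Timp1 at -1.29 and Timp3 at -0.34, none past the adjusted threshold. Timp4 was well above background on 3 arrays in Cy5 and on 0 in Cy3. The probes of Slpi and Timp1 lay in the lost area.

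Of the receptors, integrin chains and components of the elastin receptor complex, 7 of 12 were higher than the reference and 1 lower. The integrin gene Itga9 stood at a log2 ratio of 3.22, Itga4 at 2.61 and the epithelial integrin gene Itgb6 at -2.75 ± 0.22 (SD, n = 6). The Cy5 signal of Itgb6 was well above background on 3 of 6 arrays, so the size of its ratio is uncertain. Of growth factors that microfibrils can hold, 3 of 6 were higher. Tgfb3 stood at 4.17 over 5 tumors, since its spot on the array of tumor 313 was left out as an outlier. Tgfb2 stood at 2.11 and Bmp2 at 1.17, with a reference signal well above background on 2 arrays for Tgfb2 and on 1 for Bmp2. In both lists 0 genes passed between the days. The smallest p values among receptors belonged to Itgb6 at -0.31, Itgb5 at 0.43 and Itgav at -0.35, and among growth factors to Tgfb3 at 0.64 (limma unadjusted p = 0.0499, 5 tumors), Bmp4 at -1.18 and Tgfb2 at 1.34. The probes of Tgfb2, Bmp2, Bmp4 and Itgav lay in the lost area of the array of tumor 312, where Tgfb2 read -0.40, against 2.80 and 1.92 in the other day 10 tumors.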

How the data were processed

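Tumor RNA (Cy5) and reference RNA (Cy3) were read on 6 Agilent arrays. Agilent Feature Extraction 9.1.3.1 made the deposited files, which, per the file headers, give the mean intensity and median background of each spot and dye, not normalized. The deposited log ratio is a log10 ratio after the software's background subtraction and LOWESS, taken as log2 in an alternative. The deposited value table held the same log10 ratios at all 45018 spots, with a median of 0 in every column. In limma 3.58.1 (R 4.3.3), intensities were corrected with normexp (offset 50), log2 ratios were normalized by loess within arrays, and control and outlier spots were left out. Probes, named through RefSeq symbols or accessions where these matched (33026 of 41174), entered a test when well above background on at least 3 of 6 arrays, in either dye against the reference and in Cy5 between the days. lmFit and eBayes gave 2-sided p-values, adjusted by Benjamini-Hochberg over all probes. Cy3 alone was quantile normalized. Only the model fit and the calling thresholds were run on simulated log2 ratios, without the background, loess and filter steps before them. Alternatives changed scaling, background, filter, probe choice, dye and tumors. All 10 members are named, with up to 3 genes per pathway list and comparison (largest absolute ratio among called genes; smallest p between days) and the 3 genes most alike in profile. Members, lists and tests were chosen with earlier results of these data known.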

Additional observations from a re-analysis of the deposited data

Results flagged for a closer look

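The log2 ratio of Fbln2 in day 10 tumor 312 was 0.23, while the other 5 tumors lay between 4.21 and 4.93. The gap to the nearest tumor took up 0.847 of the whole range, above the 95% critical value of Dixon's test for 6 samples. By chance about 1 in 20 groups would stand out in this way. Its spot was not well above background in either dye and lay in the area of that array that had lost signal.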

How the results depend on the processing

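Against the reference, 9 members were higher under every alternative except the requirement of signal on all 6 arrays (8 of 9 tested) and the removal of the size threshold (10, Efemp2 at 0.77 included). Leaving out each tumor in turn gave 9 each time. Between the days 0 members passed under every alternative, also without tumors 312 and 313 together, a setting chosen after seeing the data, and 0 passed in the reference signal. The number with a difference above 0 was 7 of 10 with median centring, without tumor 312, without tumor 313, without both and in Cy5 alone, and 10 without tumor 318. The members' median difference was 0.42 with median centring, 0.49 with the scanner log ratio and 0.56 with the lost area left out. It was 0.47 without tumor 312, 0.33 without tumors 312 and 313 and 1.18 without tumor 318. Over all genes the median difference between the days was 0.02. It moved to -0.30 with median centring and to -0.10 in Cy5 alone, so a sign below 0 there is read beside those medians. Efemp2 against the reference turned to -0.20 with median centring. The difference of Fbn1 between the days turned to -0.20 with median centring, -0.12 in Cy5 alone and -0.15 without tumors 312 and 313, and ranged from -0.015 to 0.33 when each tumor was left out, below 0 without 312 (-0.011) or 313. That of Emilin1 turned to -0.17, -0.32 and -0.24 in the same order and ranged from -0.087 to 0.29, below 0 without 312 or 313 (-0.080). That of Efemp2 ranged from -0.44 to 0.059, above 0 without 318. The cause was not tested. Over all genes, calls against the reference were 4159 higher and 1594 lower, 3239 and 4595 with median centring, 4459 and 3231 with the scanner log ratio, and 7937 and 5233 with no size threshold. Calls between the days, 2 higher and 7 lower, ranged from 0 to 6 higher and from 1 to 7 lower when each tumor was left out, were 1 and 8 with median centring or the scanner log ratio, 1 and 0 with signal required on all 6 arrays, and 0 and 0 in Cy5 alone and without tumors 312 and 313. Signal over background limits the sizes for Fbln5, Mfap4, Eln, Fbn1 and Mfap5. No paired analysis was possible because the tumors of the days share no numbers.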

Other observations

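A further probe, described in the array files as a fibrillin 1 clone and carrying the name AK082039, was not counted among the Fbn1 probes. It was not well above background in either dye on any of the 6 arrays, with a mean log2 ratio of 0.05 ± 0.11 (SD, n = 6).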
